A study of Mus musculus with 12 samples.

Results

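The genes described here are 5 acute-phase genes of large peritoneal macrophages: Saa1, Saa2, Saa3, Lcn2 and Hp. Each symbol matched 1 of the 57010 rows of the count table, and all 5 had enough counts to be tested. They were chosen from results already known for these libraries, which included the higher Saa1 level after tumour challenge in both genotypes and the lower Lcn2 level in challenged Tim4KO cells. Which values chose the other 3 genes is not recorded. Values of the members between challenged and naive cells, between genotypes in challenged cells, and in the interaction built from both are therefore given as a description without a p-value.

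Acute-phase proteins are secreted in quantity when tissue is injured or infected. Serum amyloid A proteins are small apolipoproteins that associate with high-density lipoprotein. Saa1 and Saa2 are made mainly by the liver under interleukin 6 and interleukin 1, whereas Saa3 is known as the form made by macrophages, adipocytes and other cells outside the liver. Lcn2 encodes lipocalin 2, which binds bacterial siderophores and so withholds iron from microbes. Hp encodes haptoglobin, which captures free haemoglobin for uptake through the receptor CD163. Transcription of this class of genes is known to be driven by C/EBP, NF-kB and STAT3.

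The cells were sorted as F4/80 high and MHC class II low from female mice, WT or lacking the scavenger receptor Tim4 (Tim4KO). There were 4 groups of 3 libraries: naive and ID8 cells of WT mice (WT naive, WT ID8) and of Tim4KO mice (Tim4KO naive, Tim4KO ID8). ID8 mice had received ID8ZGO cells, an ovarian tumour line that expresses ZsGreen and OVA, into the peritoneum at 8 weeks of age, and ZsGreen-positive macrophages were sorted 24 h later. The naive groups carry no treatment in the labels, and the age of their mice, the Tim4KO allele and the number of mice behind a library are not given in the labels. Only ID8 cells were selected for ZsGreen, so challenge, uptake of tumour material and that gate cannot be told apart. Nothing in the labels says that libraries of a group came from separate mice, so p-values measure the spread between these libraries, which may be technical.

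Promoters of 4 of the 5 members were in the RefSeq promoter table of build GRCm38.p6. Their 250 bases before the start site are shown because Saa1, Saa2, Saa3 and Lcn2 were all higher in ID8 libraries. Capitals mark matches, on either strand, to the C/EBP motif TTNNGNAA and the NF-kB motif GGNNTTTCC. The Saa1 window is chr7:46742981-46743230 on the minus strand, the Saa2 window chr7:46751583-46751832 on the plus strand, the Saa3 window chr7:46715677-46715926 on the minus strand and the Lcn2 window chr2:32387740-32387989 on the minus strand.
Saa1: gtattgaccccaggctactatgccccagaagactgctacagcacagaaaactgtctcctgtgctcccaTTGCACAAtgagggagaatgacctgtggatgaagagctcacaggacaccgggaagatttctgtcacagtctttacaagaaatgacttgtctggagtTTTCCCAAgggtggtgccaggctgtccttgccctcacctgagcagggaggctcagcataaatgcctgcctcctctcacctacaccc
Saa2: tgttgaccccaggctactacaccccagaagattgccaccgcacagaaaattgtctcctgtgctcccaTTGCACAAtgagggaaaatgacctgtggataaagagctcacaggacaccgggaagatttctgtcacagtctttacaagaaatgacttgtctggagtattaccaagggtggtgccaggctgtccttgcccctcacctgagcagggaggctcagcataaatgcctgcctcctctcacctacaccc
Saa3: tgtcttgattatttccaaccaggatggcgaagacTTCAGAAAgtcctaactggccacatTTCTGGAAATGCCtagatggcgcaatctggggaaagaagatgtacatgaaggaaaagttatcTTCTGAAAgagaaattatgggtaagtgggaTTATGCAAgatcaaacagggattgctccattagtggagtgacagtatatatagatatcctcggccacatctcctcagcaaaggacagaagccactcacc
Lcn2: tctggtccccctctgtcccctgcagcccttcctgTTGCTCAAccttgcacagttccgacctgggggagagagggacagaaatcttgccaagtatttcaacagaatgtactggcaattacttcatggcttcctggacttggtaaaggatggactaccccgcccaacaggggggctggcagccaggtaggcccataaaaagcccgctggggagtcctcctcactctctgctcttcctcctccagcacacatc
Every one of these 4 windows held a C/EBP match, as did 36.9% of 32841 promoter windows of that length. The match TTGCACAA lies at -182 to -175 in Saa1 and at -183 to -176 in Saa2, counted from the start site. An NF-kB match was present only in Saa3 among these 4 genes, where GGAAATGCC at -187 to -179 overlaps the C/EBP match TTCTGGAA, and in 4.93% of all windows. The STAT motif TTCNNNGAA matched none of the 4 windows and 7.02% of all windows. The Saa1 and Saa2 windows are 94.8% identical, against 48.5% for Saa1 and Saa3. A match is a run of letters and does not show that a factor binds.

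Saa1, Saa2 and Saa3 lie in a cluster on chromosome 7, Lcn2 on chromosome 2 and Hp on chromosome 8. The coding sequences of Saa1 and Saa2 are 95.1% identical over 366 bases, and 13.2% of the 50-base windows of the Saa1 transcript also occur in Saa2. Saa1 and Saa3 share 1.6% of such windows. How the authors divided reads that fit more than 1 gene is not stated, so the Saa2 level in libraries with much Saa1 is uncertain. No exon of the 5 members overlaps that of another annotated gene.

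Library totals ran from 7358559 to 23170244 counts, and libraries of a group correlated across genes with r of 0.967 to 0.994. Levels are CPM, in which each count is divided by the library total after TMM scaling, so that depth cancels. Scaling does not cancel differences in the number of genes detected. This number ran from 21235 in WT ID8 3, the library with the most counts, to 40365 in Tim4KO naive 3. In WT ID8 2 and Tim4KO ID8 1 it was 25740 and 24347, and the cause was not tested. A count of 3, taken as the lowest told from 0, was 0.137 to 0.399 CPM depending on the library, and such floors cover counting error only. WT ID8 3 stood apart from its group: r was 0.967 and 0.971 in its pairs with WT ID8 1 and 2, and at least 0.984 in the replicate pairs without it. Chi-square divided by its degrees of freedom was 53.1 and 88.9 in those pairs, and at most 29.5 in the replicate pairs without WT ID8 3. Chi-square grows with depth, so part of that contrast may come from the high total of WT ID8 3. Timd4, which encodes Tim4, was at 882 to 1490 CPM in WT and 1.38 to 7.71 CPM in Tim4KO libraries, as labelled. All 8 listed markers of large peritoneal macrophages had counts in every library. Among them, Gata6 stood at 120 to 194 CPM, Adgre1 at 2570 to 6300 CPM and Icam2 at 617 to 1480 CPM. How the 8 markers changed with challenge is given further on. In sorted bulk cells, a different number of cells expressing a gene and a different amount of RNA per cell cannot be told apart.

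Macrophages that had taken up tumour material held more Saa1, Saa2, Saa3 and Lcn2 RNA than naive macrophages in both genotypes, while Hp was not called. In WT, edgeR called 4 of the 5 members as higher and 0 as lower, and 19.5% of all 15943 tested genes were called as higher. In Tim4KO, 4 of 5 were called as higher and 0 as lower, and 11.5% of all tested genes were called as higher. The median log2 change of the members was 5.15 in WT and 3.19 in Tim4KO, against -0.04 and -0.05 over all tested genes. The libraries of the groups did not overlap for 4 of 5 members in WT (44.4% of all tested genes) and for 5 of 5 in Tim4KO (41.9%). These comparisons were known when the members were chosen, so nothing is read from the counts. Each shares its ID8 libraries with the genotype comparison given further on.

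**Figure D1:**
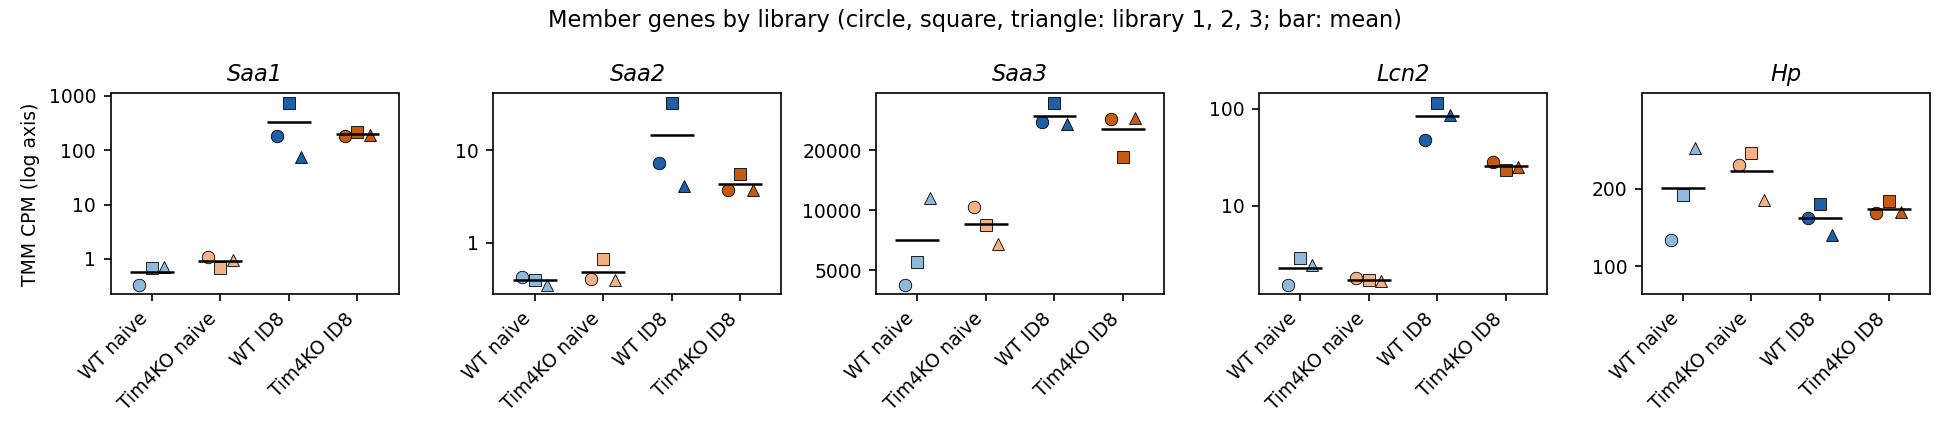
TMM CPM of each member gene in each library on a log axis whose range differs between panels, by group, with libraries 1, 2 and 3 as circle, square and triangle and the group mean as a bar. Every ID8 library lies above every naive library for Saa1, Saa2, Saa3 and Lcn2, and for Saa1 and Saa2 WT ID8 2 lies far above the rest.

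Saa3, the macrophage form of serum amyloid A, was already abundant in naive cells. It stood at 4190, 5460 and 11500 CPM in WT naive 1, 2 and 3 and at 10400, 8380 and 6790 CPM in Tim4KO naive 1, 2 and 3. In ID8 libraries it stood at 27600, 34700 and 27100 CPM in WT and at 28800, 18400 and 29100 CPM in Tim4KO. Every ID8 library was above every naive library, and genotypes overlapped within each condition. Saa3 was the gene with the most counts in 5 of the 6 ID8 libraries and the second in the remaining library, Tim4KO ID8 2. It took 1.87% to 3.1% of all counts there and 0.445% to 1.18% in naive libraries. The log2 change with challenge was 2.08 in WT (SE 0.34) and 1.58 in Tim4KO (SE 0.33). The call in Tim4KO was lost when low-count genes were kept in the test, with a change of 1.63.

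Saa1, known mainly as a liver product, went from near the counting floor to at least 74.5 CPM in every ID8 library. Naive libraries held 3, 10 and 10 counts in WT and 13, 5 and 17 counts in Tim4KO, which is 0.325 to 1.07 CPM. WT ID8 1, 2 and 3 stood at 185, 751 and 74.5 CPM, from 1610, 8739 and 1632 counts. Tim4KO ID8 1, 2 and 3 stood at 184, 218 and 188 CPM. The WT ID8 libraries thus spanned a 10.1-fold range that enclosed all 3 Tim4KO ID8 libraries, which spanned 1.19-fold. The log2 change with challenge was 9.13 in WT (SE 1.07) and 7.71 in Tim4KO (SE 1.01). Without WT ID8 2 the WT change was 7.77. Both values rest on naive counts close to 0, so their size is poorly fixed.

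Saa2, the close copy of Saa1, was also higher in every ID8 library than in every naive library, at a lower level than Saa1. Naive libraries held 4 to 7 counts, or 0.349 to 0.666 CPM. It reached 7.37, 32.6 and 4.11 CPM in WT ID8 1, 2 and 3 and 3.69, 5.54 and 3.75 CPM in Tim4KO ID8 1, 2 and 3. WT ID8 2 was the highest library for both genes. The log2 change with challenge was 5.19 in WT (SE 0.78) and 3.19 in Tim4KO (SE 0.78), and without WT ID8 2 the WT change was 3.85. In Tim4KO the call was lost in 5 of the 12 fits that each left out 1 library, those without Tim4KO naive 1, 2 or 3 (3.13, 3.41 and 3.04) and without Tim4KO ID8 1 or 2 (3.30 and 3.01).

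Saa2 counts were a small share of Saa1 counts in every ID8 library. They amounted to 3.98%, 4.34% and 5.51% of the Saa1 counts in WT ID8 1, 2 and 3 and to 2.01%, 2.54% and 1.99% in Tim4KO ID8 1, 2 and 3. The groups did not overlap, with 4.61% ± 0.805 in WT and 2.18% ± 0.313 in Tim4KO (SD, n = 3 each). This ratio was looked at after its values were seen, so no test is given, and the part that reads shared between the copies play in it was not tested.

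**Figure D2:**
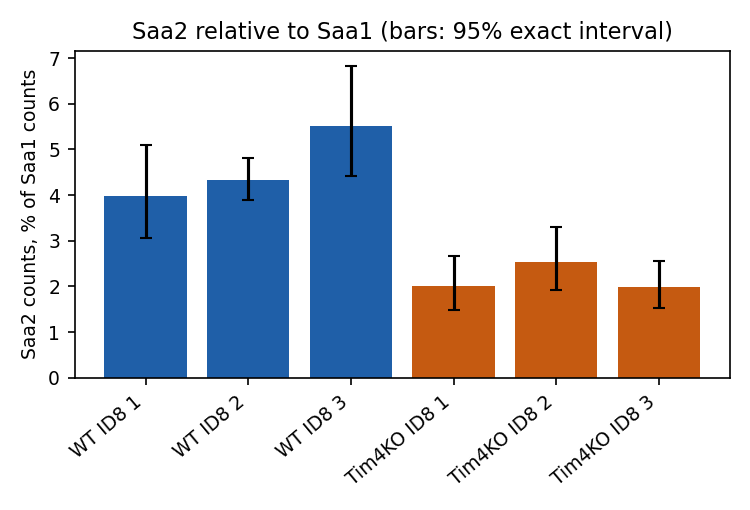
Saa2 counts as a percentage of Saa1 counts in each ID8 library, WT in blue and Tim4KO in orange, with 95% Clopper-Pearson intervals that cover counting error only. The WT libraries lie at 3.98% to 5.51% and the Tim4KO libraries at 1.99% to 2.54%.

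Lcn2 was low in naive cells and differed between genotypes after challenge. Naive libraries held 1.52, 2.94 and 2.44 CPM in WT and 1.80, 1.73 and 1.69 CPM in Tim4KO. WT ID8 1, 2 and 3 held 48.2, 116 and 87.5 CPM and Tim4KO ID8 1, 2 and 3 held 28.4, 23.5 and 25.0 CPM. All ID8 libraries were above all naive ones, and every WT ID8 library was above every Tim4KO ID8 library. The log2 change with challenge was 5.15 in WT (SE 0.31) and 3.88 in Tim4KO (SE 0.32).

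Hp was expressed in naive cells and was the member that did not go up. It stood at 127, 189 and 286 CPM in WT naive 1, 2 and 3 and at 247, 275 and 181 CPM in Tim4KO naive 1, 2 and 3. ID8 libraries held 154, 174 and 132 CPM in WT and 161, 179 and 162 CPM in Tim4KO. The WT groups overlapped, whereas every Tim4KO ID8 library lay below every Tim4KO naive library, the closest being 179 and 181 CPM. The log2 change with challenge was -0.39 in WT (SE 0.24) and -0.48 in Tim4KO (SE 0.24), neither of them called. Hp was called lower in WT with upper-quartile scaling (-0.63) and without WT naive 1 (-0.63), and in Tim4KO in a fit to only these 2 groups (-0.51).

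Per kilobase of principal transcript, the levels in WT naive cells were 12700 ± 7080 CPM for Saa3, 149 ± 59.9 for Hp, 2.51 ± 0.789 for Lcn2, 0.926 ± 0.341 for Saa1 and 0.651 ± 0.0699 for Saa2 (SD, n = 3 each). In WT ID8 cells they were 53700 ± 7660 CPM per kilobase for Saa3, 553 ± 596 for Saa1, 114 ± 15.8 for Hp, 91.8 ± 37.3 for Lcn2 and 24.2 ± 25.7 for Saa2. In Tim4KO naive cells they were 15400 ± 3250 CPM per kilobase for Saa3, 174 ± 35.8 for Hp, 1.9 ± 0.0634 for Lcn2, 1.47 ± 0.34 for Saa1 and 0.809 ± 0.251 for Saa2. In Tim4KO ID8 cells they were 45800 ± 11000 CPM per kilobase for Saa3, 323 ± 30.4 for Saa1, 125 ± 7.32 for Hp, 28.0 ± 2.70 for Lcn2 and 7.14 ± 1.73 for Saa2. Saa3 led in every library. Saa1 and Saa2 overlapped in naive libraries of both genotypes. In WT ID8 the ranges of Saa1, Hp, Lcn2 and Saa2 each overlapped the next, but the order was the same within every WT ID8 library. In Tim4KO ID8 no neighbours overlapped. The remaining gene of the family, Saa4, a constitutive liver form, had 0 to 5 counts per library and was not tested.

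Loss of Tim4 left the members within the replicate spread in naive cells. EdgeR called 0 of the 5, and 0 had an unadjusted p under 0.05. Over all 15943 tested genes 0.0439% were called and 999 genes had an unadjusted edgeR p under 0.05, so a count of 0 among 5 members says little. The log2 differences, Tim4KO minus WT, were 0.64 for Saa1 (SE 1.49), 0.24 for Saa2 (SE 1), 0.27 for Saa3 (SE 0.33), -0.44 for Lcn2 (SE 0.36) and 0.22 for Hp (SE 0.24). Their edgeR adjusted p ran from 0.886 to 0.986, and DESeq2 called 0 as well. Without WT naive 1 the Hp difference was -0.02. These standard errors leave room for differences of several fold in Saa1 and Saa2.

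In challenged cells Lcn2 was the member that differed by genotype. EdgeR called 1 of 5 members as lower in Tim4KO, where 0.0502% of all tested genes were called as lower. The background depended on WT ID8 3: calls in either direction over all genes numbered 9 with all libraries and 997 without that library, and DESeq2 gave 265 with all libraries. Of the members, 1 of 5 had groups that did not overlap, as had 15.6% of all tested genes. This comparison was known when Lcn2 was chosen, so the count is a description. The log2 difference of Lcn2 was -1.71 (SE 0.25), from 84.0 ± 34.2 CPM in WT to 25.6 ± 2.47 CPM in Tim4KO (SD, n = 3 each). It kept its sign, at -2.03 to -1.42, in all 12 fits that each left out 1 library. The call was lost in 5 of them, without WT naive 3 (-1.72), WT ID8 2 (-1.42) or Tim4KO ID8 1, 2 or 3 (-1.81, -1.66 and -1.71), and in the fit to only the 2 groups (-1.68).

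Of the other members, Saa2 differed by -1.76 (SE 0.60), Saa1 by -0.78 (SE 0.67), Saa3 by -0.23 (SE 0.33) and Hp by 0.13 (SE 0.24), none of them called with all libraries. The differences of Saa1 and Saa2 rested on WT ID8 2: without it that of Saa1 turned to 0.60 and that of Saa2 shrank to -0.40. Saa2 was called without WT ID8 3 (-2.25) and with low-count genes kept in the test (-1.83).

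**Figure D3:**
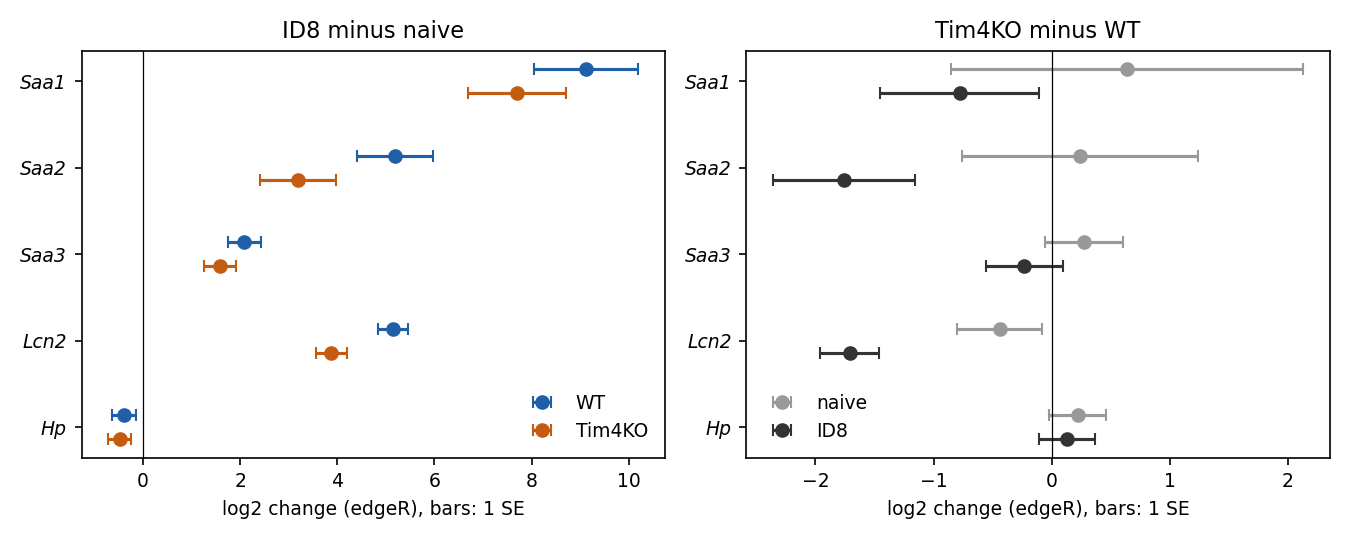
Log2 changes of the 5 members from edgeR with bars of 1 standard error, ID8 minus naive in each genotype on the left and Tim4KO minus WT in each condition on the right. The challenge changes of Saa1, Saa2, Saa3 and Lcn2 are positive in both genotypes, and the largest genotype differences are those of Saa2 (-1.76) and Lcn2 (-1.71) in ID8 cells.

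Whether challenge acted differently in the genotypes is the question of the interaction, the Tim4KO change minus the WT change. It uses the ID8 values from which members were chosen, so it is a description of them. EdgeR called 0 of 5 members and 0% of all tested genes, and DESeq2 called 0 members and 11 genes in all. Without WT ID8 3, edgeR called 368 genes and 0 members. The interaction was -1.27 for Lcn2 (SE 0.44), -2.00 for Saa2 (SE 1.18), -1.42 for Saa1 (SE 1.63), -0.50 for Saa3 (SE 0.46) and -0.09 for Hp (SE 0.34). Without WT ID8 2 the values of Saa1 and Saa2 were -0.05 and -0.66. With low-count genes kept in the test Lcn2 was called (-1.35).

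Among 23 other acute-phase proteins, 11 were tested. In WT 2 rose and 2 fell with challenge, beside 19.5% and 12.3% of all tested genes, and in Tim4KO 2 rose and 2 fell, beside 11.5% and 5.06%. The metallothionein gene Mt2 rose from 1.54 to 13.6 CPM in WT (log2 change 3.09, SE 0.42, edgeR adjusted p = 0.00015) and from 0.801 to 10.6 CPM in Tim4KO (3.76, SE 0.46, edgeR adjusted p = 0.000148). Mt1, a second metallothionein gene, rose by 0.57 in WT and by 0.55 in Tim4KO on the log2 scale (edgeR adjusted p = 0.00838 and 0.018). The orosomucoid gene Orm3 fell by 2.27 in WT and by 3.28 in Tim4KO on the log2 scale, from 1.9 and 2.9 CPM to 0.403 and 0.273 CPM (edgeR adjusted p = 0.00908 and 0.00206). Cp, which encodes the copper-carrying ferroxidase ceruloplasmin, fell from 116 to 51.8 CPM in Tim4KO (-1.16, SE 0.23, edgeR adjusted p = 0.00398) and from 88.6 to 53 CPM in WT (-0.75, SE 0.23, edgeR adjusted p = 0.024). Apcs and Hamp, classical liver genes, had at most 3 counts in any library. In neither genotype comparison did a gene of this list pass.

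Of 21 cytokines, receptors and transcription factors that are known to drive acute-phase genes, 6 rose and 5 fell with challenge in WT, where 19.5% and 12.3% of all tested genes did, and 2 rose and 6 fell in Tim4KO, against 11.5% and 5.06%. The median log2 change of the list was 0.02 in WT and -0.15 in Tim4KO. Il6, the main inducing cytokine, went from 1.84, 4.34 and 4.40 CPM in the naive to 27.9, 34.1 and 17.6 CPM in the ID8 libraries of WT, and from 3.44, 1.46 and 2.03 CPM to 8.38, 8.58 and 11.5 CPM in those of Tim4KO. It rose in WT (log2 change 2.87, SE 0.35, edgeR adjusted p = 6.32e-05) and in Tim4KO (2.01, SE 0.36, edgeR adjusted p = 0.002). As with Lcn2, every WT ID8 library held more Il6 than every Tim4KO ID8 library, but this difference did not pass with all libraries (-1.47, SE 0.32, edgeR adjusted p = 0.12). Such a lack of overlap, in either direction, was found for 15.6% of all tested genes. In this list Il1a, Osm and Tnf were also higher in every WT ID8 library, and Il6ra, Il1r1 and Cebpa were lower in every one.

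Tnf and Il1b, inflammatory cytokines upstream of NF-kB, were low. Tnf rose in WT from 0.955 to 4.26 CPM (edgeR adjusted p = 0.00556) and had a log2 change of 0.74 in Tim4KO (edgeR adjusted p = 0.365). Il1b rose in WT from 0.734 to 3.33 CPM (edgeR adjusted p = 0.0331), with WT ID8 1, 2 and 3 at 4.60, 4.55 and 0.821 CPM. Its log2 change in Tim4KO was 0.67 (edgeR adjusted p = 0.579). The interactions of Il6, Tnf and Il1b did not pass (edgeR adjusted p = 0.698, 0.672 and 0.719). Il1r1, the interleukin 1 receptor, fell from 5.02 to 0.351 CPM in WT (-3.79, SE 0.35, edgeR adjusted p = 4.07e-06) and from 3.87 to 0.776 CPM in Tim4KO (-2.30, SE 0.31, edgeR adjusted p = 0.000242).

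This list held 7 transcription factor and cofactor genes: Stat3, Cebpa, Cebpb, Cebpd, Nfkb1, Rela and Nfkbiz. None of them rose in either genotype, and the subset was picked after its values were seen. Over all tested genes 19.5% rose in WT and 11.5% in Tim4KO, so a lack of rises among 7 genes says little. Cebpd fell from 30.2 to 13.9 CPM in WT (log2 change -1.13, SE 0.15, edgeR adjusted p = 9.51e-05) and from 26.8 to 13.0 CPM in Tim4KO (-1.04, SE 0.15, edgeR adjusted p = 0.000377). Cebpb was high throughout, at 726 to 1410 CPM, with log2 changes of 0.15 in WT (edgeR adjusted p = 0.512) and 0.25 in Tim4KO (edgeR adjusted p = 0.361). Stat3 had log2 changes of 0.09 in WT (edgeR adjusted p = 0.641) and -0.15 in Tim4KO (edgeR adjusted p = 0.516).

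**Figure D4:**
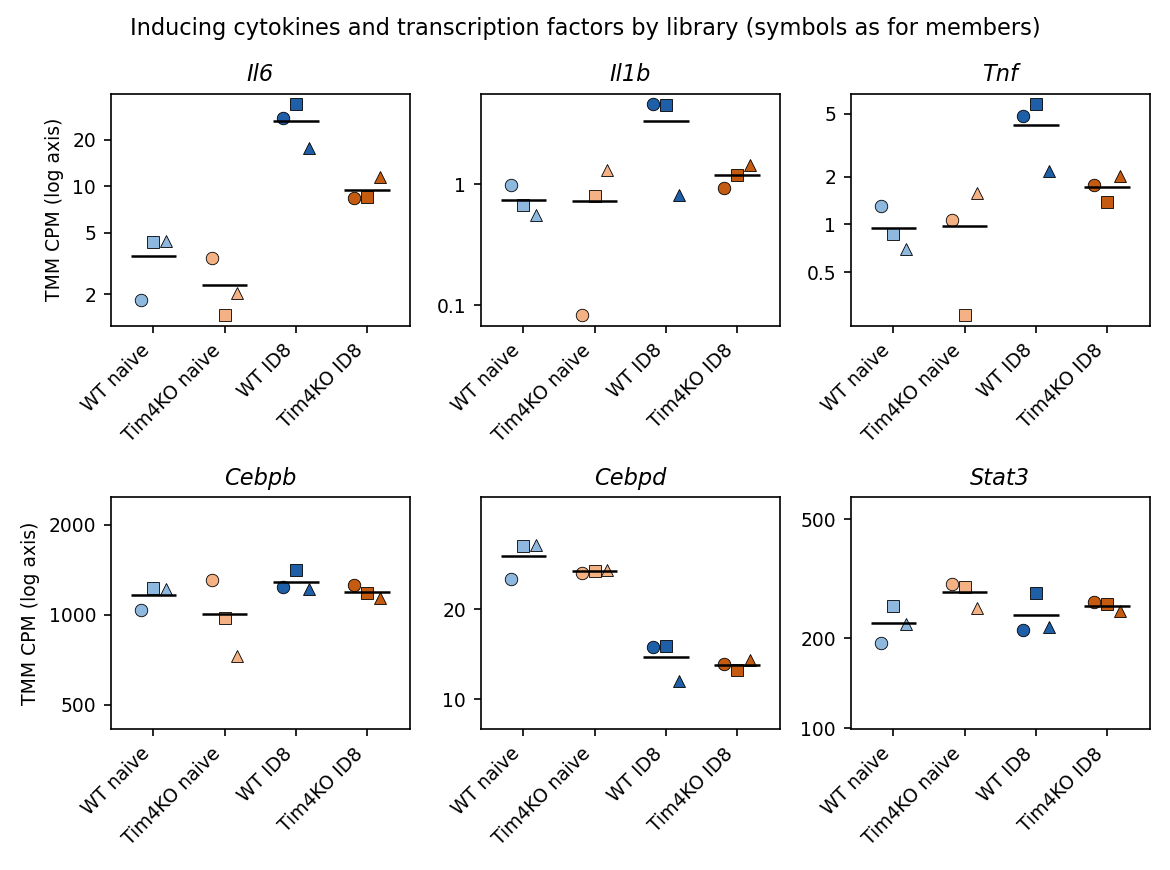
TMM CPM of 3 cytokine and 3 transcription factor genes by library on log axes whose range differs between panels, with symbols for libraries 1, 2 and 3 and bars for group means. Il6 is highest in WT ID8 (17.6 to 34.1 CPM), Cebpd is lower in all ID8 libraries than in all naive ones, and WT ID8 3 is the lowest WT ID8 library for all 3 cytokines.

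Genes of proteins that bind the products were followed as well. Of 8 receptors that are known to respond to serum amyloid A, 7 were tested, and 0 rose in either genotype. Over all tested genes 19.5% rose in WT and 11.5% in Tim4KO, so a count of 0 among 7 says little. In WT 1 fell and in Tim4KO 2 fell, beside 12.3% and 5.06% of all tested genes. P2rx7, an ATP-gated channel, fell from 61.4 to 40.2 CPM in WT (log2 change -0.61, edgeR adjusted p = 0.0316) and from 75.2 to 47.1 CPM in Tim4KO (-0.67, edgeR adjusted p = 0.0333), and the formyl peptide receptor gene Fpr1 fell in Tim4KO (-0.90, edgeR adjusted p = 0.0493). Among 12 genes of siderophore, haemoglobin and iron handling, 4 rose and 3 fell in WT (19.5% and 12.3% of all tested genes) and 3 rose and 2 fell in Tim4KO (11.5% and 5.06%), with median log2 changes of -0.16 and 0.04. Cd163, the receptor that clears haptoglobin with its haemoglobin, fell from 66.0 to 16.0 CPM in WT (-2.06, SE 0.30, edgeR adjusted p = 0.000434) and from 68.5 to 31.6 CPM in Tim4KO (-1.11, SE 0.29, edgeR adjusted p = 0.0208).

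Tfrc, the transferrin receptor, rose from 7.29 to 96.0 CPM in WT (log2 change 3.72, SE 0.41, edgeR adjusted p = 0.000131) and from 10.3 to 82.7 CPM in Tim4KO (2.98, SE 0.40, edgeR adjusted p = 0.000833). Hmox1, which degrades haem, rose in WT from 110 to 238 CPM (1.11, SE 0.16, edgeR adjusted p = 0.000191) and stood at 140 and 176 CPM in naive and ID8 cells of Tim4KO (0.33, edgeR adjusted p = 0.181). Lrp1, the receptor for haem bound to haemopexin, rose in Tim4KO from 490 to 1130 CPM (1.2, SE 0.23, edgeR adjusted p = 0.00325) and in WT from 515 to 897 CPM (0.80, edgeR adjusted p = 0.0178). Mmp9, a protease that binds lipocalin 2, fell in Tim4KO (-1.30, SE 0.29, edgeR adjusted p = 0.00823) and in WT (-0.85, edgeR adjusted p = 0.04). With all 12 libraries, none of these lists held a gene that passed in a genotype comparison. The lists were not counted without WT ID8 3.

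**Figure D5:**
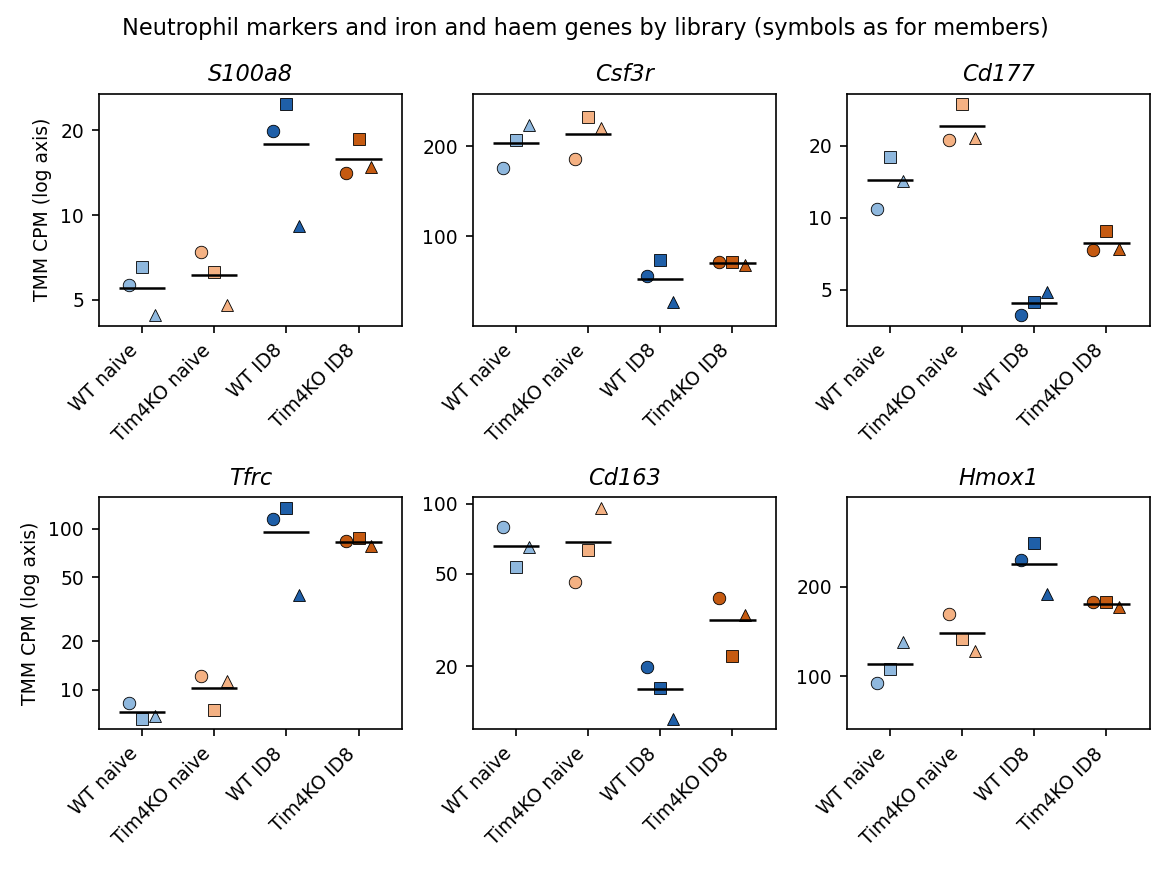
TMM CPM of 3 genes of the neutrophil list and 3 iron and haem genes by library on log axes whose range differs between panels, with symbols for libraries 1, 2 and 3 and bars for group means. S100a8, Tfrc and Hmox1 are higher and Csf3r, Cd177 and Cd163 are lower in every ID8 library than in every naive library.

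Lcn2 and Hp are also stored by neutrophils, and Saa genes are also expressed by liver and stromal cells, so markers of these cells were summed. The 13 neutrophil markers summed to 189 to 259 CPM in naive and 77.4 to 118 CPM in ID8 libraries of WT, and to 213 to 289 CPM and 111 to 125 CPM in those of Tim4KO. Most of this was Csf3r, which fell in both genotypes (log2 changes -1.51 and -1.44, edgeR adjusted p = 1.68e-05 and 4.8e-05). Of the 13 markers 7 were tested. In WT 3 rose and 2 fell, beside 19.5% and 12.3% of all tested genes. In Tim4KO 2 rose and 2 fell, beside 11.5% and 5.06%. The median log2 changes of the 7 markers were 1.69 in WT and 1.23 in Tim4KO. The granule genes Camp, Ltf and Ngp had at most 5, 9 and 4 counts in any library and were not tested. Retnlg rose from 0.238 to 2.11 CPM in WT and from 0.79 to 8.69 CPM in Tim4KO (edgeR adjusted p = 0.0334 and 0.0173), and S100a9 rose from 0.2 to 2.14 CPM in WT (edgeR adjusted p = 0.0206). S100a8 rose in WT from 5.53 to 18 CPM (1.69, edgeR adjusted p = 0.00122) and in Tim4KO from 6.14 to 15.9 CPM (1.37, edgeR adjusted p = 0.00802), and the part of these markers in the Lcn2 result was not tested.

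The 6 hepatocyte markers summed to at most 1.57 CPM in any library, and Alb had at most 7 counts. Epithelial, mesothelial and tumour cell markers (12 genes) summed to 5.21 to 24.0 CPM in naive and 1.10 to 5.81 CPM in ID8 libraries, and their part in the results was not tested. Of these 12 genes, 9 had 0 counts in WT ID8 3 and 8 in Tim4KO ID8 1, against 0 or 1 in the remaining ID8 libraries. Fibroblast and adipocyte markers (9 genes) summed to 4.93 to 16.2 CPM in naive and 4.73 to 14.7 CPM in ID8 libraries. Markers of monocytes, small peritoneal macrophages and dendritic cells (6 genes) summed to 39.1 to 62.3 CPM in naive and 11.1 to 30.6 CPM in ID8 libraries. B cell markers (5 genes) reached at most 20.1 CPM, mast cell markers (5 genes) 38.8 CPM and T or NK cell markers (5 genes) 6.99 CPM. The 8 large peritoneal macrophage markers summed to 19300 to 23900 CPM in naive and 15300 to 18700 CPM in ID8 libraries of WT. In Tim4KO they summed to 20900 to 24400 CPM and 19400 to 20000 CPM. Of these markers 3 rose and 3 fell with challenge in WT (19.5% and 12.3% of all tested genes). In Tim4KO 2 rose and 3 fell (11.5% and 5.06%). Mean Alox15 went from 11300 to 5490 CPM in WT and from 11300 to 7680 CPM in Tim4KO.

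Genes with a pattern like that of a member were ranked by Pearson r of log2(CPM + 1) across the 12 libraries among 9670 other genes. The libraries fall into naive and ID8 cells, and genes with that split share it, so the values are a description only. Nearest to Lcn2 were Rnf128 (r = 0.994), Pls3 and Pgam1 (0.986 each). Nearest to Saa1 were Acp5 and Igsf8 (0.991 each) and Smarca4 (0.99), and to Saa2 Pphln1 and Pitrm1 (0.984 each) and Pla2g4a (0.98). Nearest to Saa3 were Il2rg (0.966), Ddx46 (0.963) and Tmem184b (0.954), and to Hp Birc3 (0.919), Tsc22d3 and Mcl1 (0.888 each).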

How the data were processed

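For 12 RNA-seq libraries the authors deposited 1 table of counts by Ensembl gene. Whole numbers with unequal library totals mark them as not normalized. Per the submitters' processing notes, FastQC, STAR 2.5 and the builds mm10 and GRCm39 were used, with no role given. The counting program, annotation, strand setting and treatment of multi-mapping reads are not given in the sources used here. Per the labels' protocols, extraction used an RNeasy micro kit and library preparation a SMART-Seq mRNA LP kit. No molecular identifiers are named there, so reads may not be independent molecules.

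Symbols, transcript lengths and exon overlaps came from GENCODE vM21 (52029 of 57010 identifiers had a symbol), and promoters from RefSeq. Hp was not found in the promoter table. Protein sequences were not used here.

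EdgeR 4.0.16 in R 4.3.3 was run on the counts after filterByExpr (15943 genes), with TMM scaling and 1 quasi-likelihood model of 4 group means over all 12 libraries (8 residual degrees of freedom). Calls used Benjamini-Hochberg adjusted p under 0.05, two-sided, over all tested genes. A standard error is the size of a log2 change over the root of its F statistic. The model was tested on simulated counts before use. Alternatives were DESeq2 1.42.0, its size factors in edgeR, upper-quartile scaling, no filter on low counts, a replicate block, fits to only the groups compared, and each library left out. Same-numbered libraries of WT naive and WT ID8 deviated together from their group means (r of 0.32, 0.139 and 0.25), which the labels do not explain, and those of the other pairs of groups did not all do so. The members, gene lists and alternatives were chosen with earlier results of these data known. In the wider lists, up to 3 called genes with the smallest p were named for each comparison, together with Il6, Il1b, Tnf, Cebpb, Cebpd and Stat3. Of marker lists, genes with the highest level were to be named, and the other marker genes were chosen after their values were seen. Patterns were compared among genes with a mean of at least 50 normalized counts.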

Additional observations from a re-analysis of the deposited data

How the results depend on the processing

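The number of members called was 0 in naive cells by genotype under every alternative. By genotype in ID8 cells it was 1 with all libraries, 2 without a filter on low counts, 0 in the fit to only the 2 groups, and between 0 and 2 after dropping any 1 library. With challenge it was 4 in each genotype, 4 to 5 in WT and 3 to 4 in Tim4KO after dropping any 1 library. The interaction called 0, and 1 (Lcn2) without a filter on low counts. The cause of these changes was not tested. Differences that turned sign, none of them called, were those of Saa1 by genotype in ID8 without WT ID8 2 (0.60; range -1.27 to 0.60 after dropping any 1 library), of Hp by genotype in naive cells without WT naive 1 (-0.02; range -0.02 to 0.57), and the Hp interaction with upper-quartile scaling (0.03), without WT naive 1 (0.15) and without Tim4KO naive 2 (0.02; range -0.45 to 0.15). Upper-quartile scaling moved the median change of all genes with challenge from -0.04 to -0.28 in WT and from -0.05 to -0.17 in Tim4KO. Keeping low-count genes (50770 tested) raised the calls over all genes from 7 to 59 by genotype in naive cells, from 9 to 264 in ID8 cells and from 0 to 73 in the interaction, and moved the median change in WT with challenge to -0.84. Dropping WT ID8 3 gave 29, 997 and 368 calls, a smaller change in naive cells and a larger one in the other comparisons. DESeq2 gave 52, 265 and 11. Same-numbered libraries deviated from their group means with r of -0.384 to 0.32, over 0.1 in 6 of 18 pairs, which include all 3 pairs of WT naive with WT ID8, and 3 of 12 deviated most like their own number. With the replicate block the members called numbered 0 and 1 by genotype in naive and ID8 cells, 4 and 4 with challenge in WT and Tim4KO, and 0 in the interaction, while over all genes the genotype calls in ID8 cells went from 9 to 14 and those in naive cells from 7 to 3. Saa1 and Saa2 had 3 to 17 counts in naive libraries, so depth limits the size of their increase.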

Other observations

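Plin1, which coats lipid droplets and was listed as an adipocyte marker, rose with challenge from 1.85 to 7.02 CPM in WT (log2 change 1.94, SE 0.54, edgeR adjusted p = 0.0161) and from 1.66 to 6.27 CPM in Tim4KO (1.87, SE 0.55, edgeR adjusted p = 0.0333). WT ID8 1, 2 and 3 held 3.91, 2.58 and 14.6 CPM and Tim4KO ID8 1, 2 and 3 held 6.38, 6.74 and 5.71 CPM. All lay above the naive range of 1.07 to 2.47 CPM, WT ID8 2 only just. Naive and ID8 libraries did not overlap, in either direction, for 44.4% of all tested genes in WT and 41.9% in Tim4KO. The other adipocyte genes of that list stayed near 0, with at most 3 counts of Adipoq and 6 of Lep in any library. Retnlg, a neutrophil marker, stood at 3.91, 0.601 and 1.83 CPM in WT ID8 1, 2 and 3. In Tim4KO ID8 1, 2 and 3 it stood at 11.9, 9.14 and 5.01 CPM. Every Tim4KO ID8 library was thus above every WT ID8 library. Such a lack of overlap, in either direction, was found for 15.6% of all tested genes. The genotype difference of Retnlg did not pass (2.08, SE 0.75, edgeR adjusted p = 0.318). Both genes were picked after their values were seen.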
